A study of Rattus norvegicus with 5 samples.

Results

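The 8 genes described here encode transcription regulators that set or maintain the identity of kidney tubule cells: Hnf4a, Ppargc1a, Esrra, Esrrg, Pax2, Pax8, Lhx1 and Emx2. They were taken by symbol from 14506 genes that the platform annotation pairs with a probe set of a single symbol. Each was found with 1 probe set, and all 8 probe sets were brighter than the median probe set in mean deposited intensity. Lhx1 was so by little (97.2 against 82.9). Their RNA was measured in proximal tubular cells of Sprague-Dawley rats, prepared from kidneys of animals with type I diabetes. The cells were kept for 2 h with C-peptide, the connecting peptide cut out of proinsulin, on arrays from 3 animals, or without it on arrays from 2 animals. All animals of both groups were diabetic, so no non-diabetic control entered the comparison, while the sources used here do not give the age of the rats or how diabetes was induced. The comparison asks whether C-peptide shifts the early expression of the factors that hold tubule cells in their differentiated state.

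HNF4A is a nuclear receptor that, in the mouse, is needed for immature proximal tubule cells to acquire their transporters and brush border. PGC-1α, the product of Ppargc1a, is a coactivator that binds nuclear receptors, among them the estrogen-related receptors ERRα (Esrra) and ERRγ (Esrrg), and together they drive mitochondrial genes. PAX2 and PAX8 are paired-box factors that establish the kidney lineage in the embryo, LHX1 is a LIM-homeodomain factor of nephric duct and nephron patterning, and EMX2 is a homeodomain factor that the mouse ureteric bud needs.

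Hnf4a and Ppargc1a were the members whose C-peptide arrays all lay above both untreated arrays, with levels 1.41-fold and 1.31-fold higher. Neither passed the test over all probe sets, and nor did any other member. Esrrg, Pax8 and Esrra were also higher on average and Lhx1, Emx2 and Pax2 lower, with groups that overlapped. On the same arrays the markers of proximal tubule cells were higher and those of endothelial cells lower.

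The promoters of the members whose groups did not overlap are shown because they hold the only matches that a search of 4 short motifs found in the members. The windows are the 250 bases before each transcription start in RefSeq (rat build GRCr8, plus strand), printed 5′ to 3′ with matches in capitals. Hnf4a has 2 annotated starts here, and in human and mouse its upstream promoter is known as P2 and its downstream promoter, the one used in adult kidney, as P1. The sources used here do not say which start the probe set reports.
Hnf4a, upstream start, chr3:172605970-172606219: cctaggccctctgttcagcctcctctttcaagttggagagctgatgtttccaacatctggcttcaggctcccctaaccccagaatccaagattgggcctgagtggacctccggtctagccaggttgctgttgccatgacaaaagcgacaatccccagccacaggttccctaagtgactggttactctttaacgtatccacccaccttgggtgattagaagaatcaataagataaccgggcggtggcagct
Hnf4a, downstream start, chr3:172641586-172641835: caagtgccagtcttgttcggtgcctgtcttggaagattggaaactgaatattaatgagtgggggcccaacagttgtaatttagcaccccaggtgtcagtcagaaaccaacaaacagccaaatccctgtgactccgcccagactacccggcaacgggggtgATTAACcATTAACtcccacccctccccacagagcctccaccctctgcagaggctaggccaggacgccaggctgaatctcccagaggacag
Ppargc1a, chr14:63634058-63634307: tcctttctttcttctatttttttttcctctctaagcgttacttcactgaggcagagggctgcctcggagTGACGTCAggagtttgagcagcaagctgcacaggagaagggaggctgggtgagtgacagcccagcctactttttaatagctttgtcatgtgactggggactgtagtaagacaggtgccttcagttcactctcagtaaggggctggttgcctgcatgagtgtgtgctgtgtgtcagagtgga

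The motifs were the cAMP response element TGACGTCA, the half-site of the HNF1 factors GTTAAT, the HNF4-selective motif CAAAGTCCA and the ERR response element TCAAGGTCA, each searched on both strands. No motif overlapped another in these windows. The capitals in the downstream Hnf4a window are 2 copies of the HNF1 half-site read on the minus strand, starting 90 and 83 bases before the start. Those in the Ppargc1a window are the cAMP response element, whose first base lies 181 bases before the start. Of 27457 genes with a window, 7.13% held the HNF1 half-site, 1.78% the cAMP response element, 0.393% the HNF4 motif and 0.397% the ERR element. Windows were found for 7 of the 8 members, all but Emx2, and the other members' windows held none of the 4 motifs.

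The array of C-peptide animal 1 was the dimmest, and array medians of the deposited intensities ran from 60.1 to 95.9. The arrays were therefore quantile normalised, and levels below are normalised intensities unless called deposited. Differences are C-peptide minus untreated on the scale of log2(intensity + 16), which understates the change of dim probe sets, and p-values come from limma, adjusted by Benjamini-Hochberg over 29215 probe sets. All 13 proximal tubule markers were measured above the median probe set, and so were 9 of 10 markers of thick limb and distal tubule, 11 of 13 of collecting duct and 11 of 11 of endothelium. The counts were 12 of 13 for immune cells, 6 of 8 for stroma and smooth muscle and 3 of 5 for podocytes. Of 14506 genes, 8564 besides a given member lay above that median too. A marker above it therefore does not show that its cell type was present. No marker of any list was at 0 on any array. In such bulk samples fewer cells of a type and less RNA per cell cannot be told apart.

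Hnf4a, the nuclear receptor of the proximal tubule, had levels of 1066, 911 and 1304 in C-peptide animals 1, 2 and 3, and of 842 and 688 in untreated animals 1 and 2. All 3 treated arrays were higher than both untreated arrays, and the lowest treated and highest untreated array stood close together. The log2 difference was 0.50 ± 0.19 (SE), a 1.41-fold higher level with a 95% interval from 1.04-fold to 1.93-fold (unadjusted p = 0.0339, adjusted p = 0.400 in limma). In the deposited intensities, which were 823, 1012 and 1285 with C-peptide and 902 and 752 without, the groups overlapped through the dim array of C-peptide animal 1.

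Ppargc1a, the mitochondrial coactivator, had levels of 642, 736 and 630 with C-peptide and 513 and 497 without. Here the gap between the groups was wider than the spread within either. The log2 difference was 0.39 ± 0.14 (SE), or 1.31-fold higher with an interval from 1.04-fold to 1.66-fold (unadjusted p = 0.0284, adjusted p = 0.380 in limma). The deposited intensities were 478, 826 and 632 with C-peptide and 561 and 543 without, and they overlapped, again through C-peptide animal 1.

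These were 2 of 8 members higher without overlap and 0 of 8 lower, where 16.1% of all probe sets were higher and 13.8% lower without overlap, 30.0% in either direction. At unadjusted p under 0.05 there were likewise 2 of 8, both higher, where 5.06% of all probe sets were higher and 6.31% lower, 11.4% in all. At adjusted p under 0.05 the share of all probe sets called was 0%, so 0 of 8 members is the same as the background. The count at unadjusted p was 0 of 8 in the values as deposited, where 7.04% of all probe sets passed, and 0 without untreated animal 2. It was also 0 with the animal number as a block, in which C-peptide animal 3, unmatched by number, adds nothing to the difference. It was 1 after median centring (Hnf4a), at a pseudocount of 1 (Ppargc1a), without C-peptide animal 2 (Hnf4a) and without C-peptide animal 3 (Ppargc1a), and 3 with array weights, where Esrrg was added. Without C-peptide animal 1 it stayed 2 with other members, since Hnf4a no longer passed (unadjusted p = 0.0579 in limma) and Esrrg did. Without untreated animal 1 Ppargc1a no longer passed (unadjusted p = 0.0797 in limma) and Pax8 did (unadjusted p = 0.0448 in limma).

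**Figure D1:**
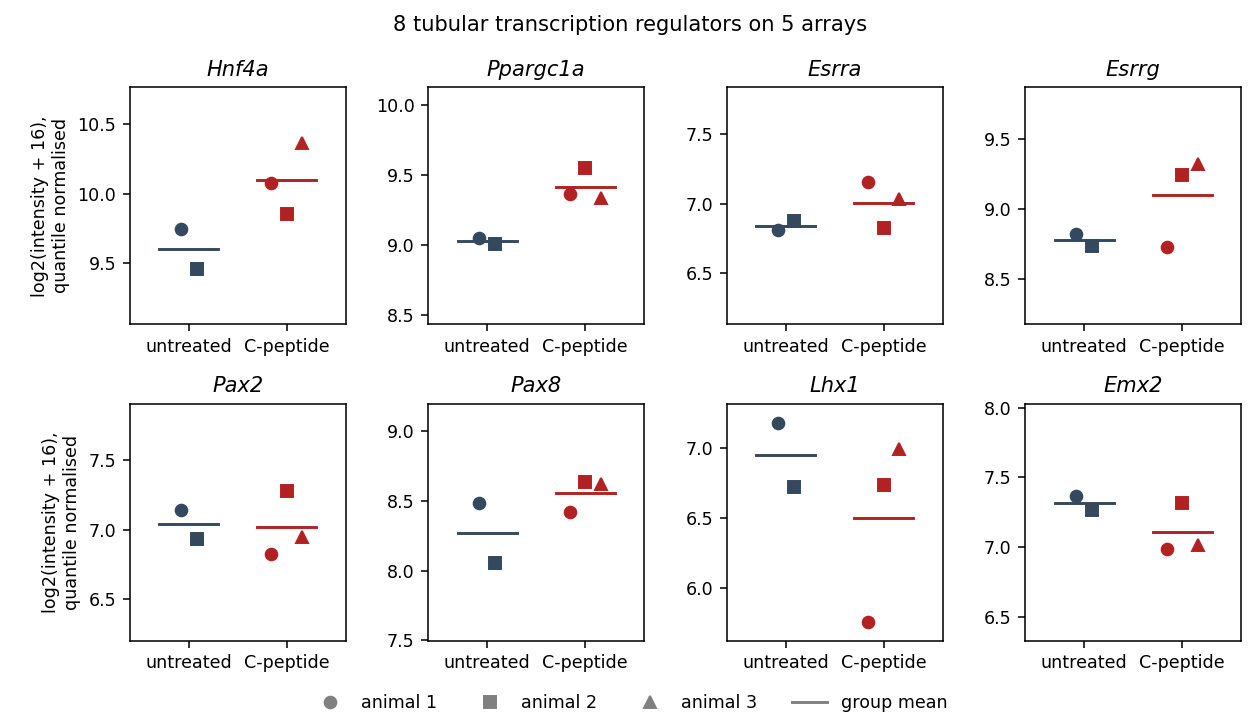
Level of each of the 8 regulators on each array, as log2(intensity + 16) after quantile normalisation (vertical axes, all of the same span), for untreated (dark) and C-peptide (red) arrays. Symbols mark the animal number within a group and bars the group mean; the groups separate in Hnf4a and Ppargc1a, and Lhx1 has a single low array, C-peptide animal 1.

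The receptors that PGC-1α works with differed less. Esrrg had levels of 408, 592 and 623 with C-peptide and 436 and 410 without. C-peptide animals 2 and 3 were higher than both untreated animals, and C-peptide animal 1 lay just below them. Its log2 difference was 0.32 ± 0.20 (SE; adjusted p = 0.606 in limma), 0.50 without C-peptide animal 1, where the unadjusted p was 0.0118, and 0.21 without C-peptide animal 3.

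Esrra had levels of 126, 97.4 and 115 with C-peptide and 96.6 and 101 without. C-peptide animal 2 lay between the untreated arrays, and the other treated arrays above them. The log2 difference of 0.16 ± 0.15 (SE) had a 95% interval from -0.20 to 0.52, and it was 0.087 when C-peptide animal 1 was left out and 0.25 when animal 2 of that group was. As deposited the difference was -0.037, and 0.097 once the median of all probe sets, which was -0.13, was taken off.

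Of the paired-box factors, Pax8 had levels of 326, 382 and 377 with C-peptide and 341 and 250 without. Untreated animal 2 was low, and untreated animal 1 lay among the treated arrays. The log2 difference was 0.29 ± 0.18 (SE; adjusted p = 0.589 in limma), and it was 0.074 without untreated animal 2 and 0.50 without untreated animal 1. Pax2 had levels of 97.6, 139 and 107 with C-peptide and 125 and 106 without, so that the treated arrays bracketed the untreated ones. Its difference was -0.021 ± 0.18, with an interval from -0.44 to 0.40, that is from 0.737-fold to 1.32-fold, and it ran from -0.15 to 0.083 when an array was left out.

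Lhx1 had the widest spread of the 8, 1.42 on the log2 scale over the 5 arrays. Its levels were 38.1, 90.9 and 112 with C-peptide and 129 and 89.7 without. The array of C-peptide animal 1 stood alone at the low end, and the other treated arrays lay within the untreated range. Its deposited intensity of 29.7 on that array was below the array's median of 60.1. The log2 difference was -0.46 ± 0.36 (SE; adjusted p = 0.685 in limma), and it was -0.087 when the array of C-peptide animal 1 was left out. Leaving out C-peptide animal 3 gave -0.70, and leaving out untreated animal 1 or 2 gave -0.22 or -0.68.

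Emx2 had levels of 111, 143 and 113 with C-peptide and 149 and 138 without. C-peptide animals 1 and 3 were below both untreated arrays, and C-peptide animal 2 lay between them. The log2 difference was -0.21 ± 0.16 (SE; adjusted p = 0.676 in limma), with an interval from -0.58 to 0.16.

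**Figure D2:**
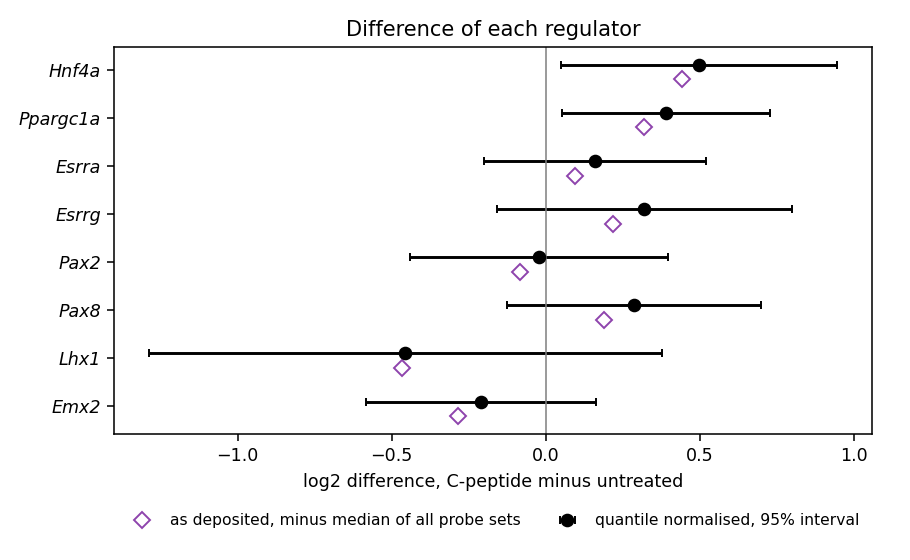
Log2 difference, C-peptide minus untreated, of each regulator after quantile normalisation (filled circles, with the 95% interval from limma, 3 against 2 arrays) and in the deposited values after the median difference of all probe sets was subtracted (open diamonds). The intervals of Hnf4a (0.050 to 0.95) and Ppargc1a (0.055 to 0.73) lie above 0 before adjustment for multiple testing; the other 6 include 0.

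The 8 members differed among themselves in the direction of their values. Their median log2 difference was 0.22, beside 0.021 for all probe sets, and 5 of 8 lay above 0. Among the 28 pairs of members, Pax2 and Emx2 had the most alike profiles over the 5 arrays, with a mean absolute distance of 0.091 on the log2 scale after each gene's own mean was removed. Both were highest on C-peptide animal 2 and untreated animal 1. Ppargc1a lay 0.14 from Pax8 and 0.14 from its partner Esrrg, 0.16 from Esrra and 0.21 from Hnf4a. Lhx1 was the member most apart, at least 0.33 from every other, and 0.50 from both Hnf4a and Ppargc1a.

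The members' profiles can be set beside those of the marker lists. Hnf4a was highest on C-peptide animal 3 and lowest on untreated animal 2, and the same was true of the 13 proximal tubule markers, whose mean log2 value stood 0.51 above and 0.55 below its mean over the arrays there (0.46 above and 0.44 below for Hnf4a). They were less alike on C-peptide animal 2, with Hnf4a at -0.045 and the markers at 0.17. On untreated animal 1 Hnf4a was at -0.16 and the markers at -0.42. Esrrg was low on C-peptide animal 1 (-0.24) and high on C-peptide animals 2 (0.28) and 3 (0.35). Markers of thick limb and distal tubule had -0.28, 0.35 and 0.14 on those arrays, and markers of collecting duct -0.28, 0.27 and 0.19. Lhx1 was at -0.92 on C-peptide animal 1, where these 2 marker lists were also at their lowest. It was highest on untreated animal 1 (0.50), where they were at -0.017 and -0.027, and only 0.061 on C-peptide animal 2, where they were at their highest. Endothelial and podocyte markers were also low on C-peptide animal 1, at -0.55 and -0.38. On untreated animal 1 they were at their highest, 0.79 and 0.52. On C-peptide animal 3 they were at -0.67 and -0.35, while Lhx1 was at 0.31. The part of these other cells in the members' values was not tested.

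**Figure D3:**
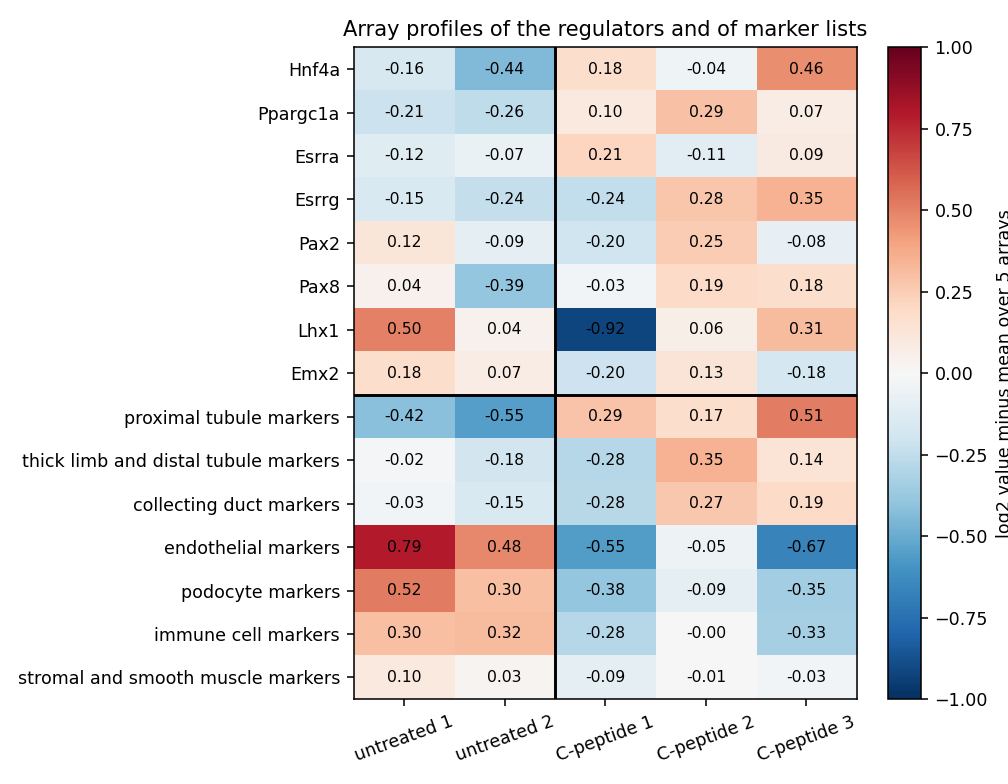
Log2 value on each array minus its mean over the 5 arrays, for the 8 regulators (rows above the line) and, as a mean over genes, for 7 lists of cell type markers (rows below); columns are arrays, with untreated left of the vertical line. Hnf4a and the proximal tubule markers are above 0.4 on C-peptide animal 3, while Lhx1 is lowest (-0.92) on C-peptide animal 1. There the thick limb, distal, collecting duct and immune markers are at -0.28, podocyte markers at -0.38 and endothelial markers at -0.55.

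Summed over the 13 proximal tubule markers, the level was 24037 to 29924 with C-peptide and 15601 to 18373 without, and 10 of 13 were higher at unadjusted p under 0.05, or 6 as deposited. The summed level of 11 endothelial markers was 8622 to 13440 with C-peptide and 20643 to 24368 without, and 10 of 11 were lower. The summed level of 13 immune cell markers was 6286 to 8453 with C-peptide and 9273 to 10345 without, with 7 of 13 lower, a count of 3 to 10 when an array was left out. For thick limb and distal tubule the sums overlapped, at 12551 to 21149 and 13969 to 15955. The collecting duct sums did too, at 3542 to 5976 and 4191 to 4786, and so did those of 8 stromal and smooth muscle markers, at 4603 to 4827 and 4807 to 5399. The sums of 5 podocyte markers were 1453 to 2460 and 3818 to 4622.

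The members were therefore also set against the median of the proximal tubule markers of the same array, a comparison chosen after the values had been seen and made without a test. That median was 0.69 higher with C-peptide on the log2 scale. On each array this scaling takes the same amount off every gene, and 99.0% of all probe sets had a negative difference and 86.0% were lower without overlap. All 8 members were negative and 7 were lower without overlap, shares near that background, and nothing is read from them about the members. Hnf4a differed by -0.19, with -0.056, -0.18 and 0.042 on the C-peptide arrays and 0.20 and 0.051 on the untreated arrays. The treated array of animal 3 and untreated animal 2 were then almost level. Ppargc1a differed by -0.30 and overlapped, Esrra by -0.53, Esrrg by -0.37 and Pax8 by -0.40. The order of the members is that of their differences before scaling, with Pax2 at -0.71, Emx2 at -0.90 and Lhx1 at -1.14.

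HNF4A binds DNA as a dimer and shares its sites with other nuclear receptors. Among 13 measured partners and corepressors, Hnf4g, the closest relative of Hnf4a, had the largest difference. Its level was 562 ± 67.3 (SD, n = 3) with C-peptide and 310.2 ± 16.9 (SD, n = 2) without, a log2 difference of 0.82 ± 0.15 (SE). The adjusted p was 0.135 in limma over all probe sets, and 0.0288 when the test was limited to probe sets above the median intensity. It was 0.590 in limma as deposited and 0.245 with the animal number as a block. Of 15 alternatives, 4 brought Hnf4g past 0.05 and 11 did not. Nr1h4, the bile acid receptor FXR, was at 0.64 ± 0.20 and Cebpb, a leucine zipper factor, at -0.53 ± 0.19, neither past the adjusted test. Cebpa, of the same family as Cebpb, was at -0.21 ± 0.15. Without untreated animal 1 Cebpb was at -0.32 and Cebpa at -0.11. In that list of 13, 2 genes were higher and 1 lower at unadjusted p under 0.05, beside 5.06% and 6.31% of all probe sets. At adjusted p 0 passed, and the median was 0.087, beside 0.021 for all probe sets. The 13 proximal tubule markers had a median of 0.71 on these arrays, and their part in the values of Hnf4g and Nr1h4 was not tested.

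Proximal tubule genes in which HNF4A has been implicated were mostly higher with C-peptide. Of 29 measured genes, 26 lay above 0, 14 were higher and 0 lower at unadjusted p under 0.05 and 0 passed adjusted, beside 5.06% and 6.31% of all probe sets in the same directions. The median was 0.44, beside 0.22 for the members and 0.021 for all probe sets. Slc22a12, the urate transporter URAT1, went from 351 ± 23.3 (SD, n = 2) to 647 ± 72.3 (SD, n = 3), a log2 difference of 0.85 ± 0.16 (SE; adjusted p = 0.127 in limma). Slc17a3, an organic anion transporter, was at 0.89 ± 0.18, and Ggt1, the brush border enzyme gamma-glutamyltransferase, at 0.71 ± 0.15. Dpep1, a brush border dipeptidase, was on the other side at -0.11 ± 0.26, which ran from -0.40 to 0.047 when an array was left out. Its probe set was dim, with a mean deposited intensity of 72.2 against 82.9 for the median probe set. The list shares 10 genes with the proximal tubule markers, among them Slc17a3 and Ggt1. All 13 of those markers lay above 0, with a median of 0.71, and their part in this list was not tested. The count of 14 was 5 as deposited and 8 without untreated animal 2. The windows of 9 of 29 genes with a window held the HNF1 half-site (31.0%) and those of 2, Pdzk1 and Slc3a1, the HNF4 motif (6.90%), beside 7.13% and 0.393% of all genes.

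Among 14 measured partners of PGC-1α and the ERRs, 1 gene was higher and 1 lower at unadjusted p under 0.05. That is 14.3%, near the 11.4% of all probe sets. At adjusted p 0 passed, and the median was -0.12. Prkaa2, a catalytic subunit of the energy sensor AMPK, went from 376 ± 5.09 (SD, n = 2) to 533 ± 87.7 (SD, n = 3), a log2 difference of 0.47 ± 0.17 (SE; adjusted p = 0.370 in limma). Mef2a, a MADS-box factor that acts on the Ppargc1a promoter in muscle, had a difference of -0.58 ± 0.16 (adjusted p = 0.256 in limma). Sirt3, the mitochondrial deacetylase, was at 0.21 ± 0.14 and Esrrb, the remaining estrogen-related receptor, at -0.35 ± 0.24. Esrrb was at -0.14 without C-peptide animal 1 and at -0.53 without C-peptide animal 2. Its probe set was dimmer than the median probe set, with mean deposited intensities of 59.8 and 82.9. The highest and lowest of the list were thus an AMPK subunit and Mef2a, while the median without C-peptide animal 1 was 0.014 relative to all probe sets.

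Mitochondrial genes that PGC-1α and the ERRs are known to drive were higher by a median of 0.24, with 25 of 28 above 0. The list searched also held Vegfa, which is not a mitochondrial gene. At unadjusted p under 0.05, 4 of 28 were higher and 0 lower, beside 5.06% and 6.31% of all probe sets, and 0 passed adjusted. On the same arrays all 13 proximal tubule markers lay above 0, with a median of 0.71, and the median of the endothelial markers was -1.15; their part in this list was not tested. Ndufs1, of respiratory complex I, was at 0.48 ± 0.14 (adjusted p = 0.282 in limma), Uqcrc2, of complex III, at 0.46 ± 0.15, and Idh3a, of the citric acid cycle, at 0.45 ± 0.14. Pdk4, the kinase that shuts pyruvate dehydrogenase off, was at -0.30 ± 0.19, and at -0.19 without C-peptide animal 3. The count of 4 was 0 as deposited, 0 with the animal number as a block, 2 without either untreated animal and 11 at a pseudocount of 64, the lowest and highest being 0 and 11. The windows of this list held no ERR element and no HNF4 motif. Of 26 genes with a window, 3 (Acadm, Mdh2 and Ogdh) held the cAMP response element, 11.5% beside 1.78% of all genes. The HNF1 half-site was held by 1, or 3.85% beside 7.13%.

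Genes of nephric duct and tubule patterning, in which PAX2, PAX8, LHX1 and EMX2 act, had a median of -0.046 among 19 genes. At unadjusted p under 0.05, 1 was higher and 3 lower, beside 5.06% and 6.31% of all probe sets, and 0 passed adjusted. Ldb2, a cofactor of LIM-domain factors such as LHX1, was at 612 ± 57.3 (SD, n = 2) without and 276 ± 101 (SD, n = 3) with C-peptide, a log2 difference of -1.16 ± 0.28 (SE; adjusted p = 0.196 in limma). On these arrays the median of the 11 endothelial markers was -1.15, and their part in this value was not tested. Spry1, an inhibitor of receptor tyrosine kinases that restrains the ureteric bud, was at -0.55 ± 0.16. Gfra1, the co-receptor of RET, was at 0.41 ± 0.17 and Pax3, a relative of the members, at 0.40 ± 0.20. Gfra1 was at 0.24 without untreated animal 2, and Pax3 at 0.25 without untreated animal 1.

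Other transcription factors of the nephron had their median at 0.012, in 21 measured genes, with 0 higher and 2 lower at unadjusted p under 0.05. That is 9.52%, near the 11.4% of all probe sets, and 0 passed adjusted. Tbx2, a T-box repressor, had a log2 difference of -0.70 ± 0.16 (adjusted p = 0.185 in limma) and Sox4, of the SOX family, -0.76 ± 0.29, or -0.46 without C-peptide animal 1. Elf3, an ETS factor of epithelia, was at 0.33 ± 0.14 and Tfap2b, an AP-2 factor of the distal tubule, at 0.28 ± 0.29, which ran from -0.0011 to 0.51 when an array was left out. Both genes on the low side lay outside the members' range, which ran from -0.46 to 0.50.

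**Figure D4:**
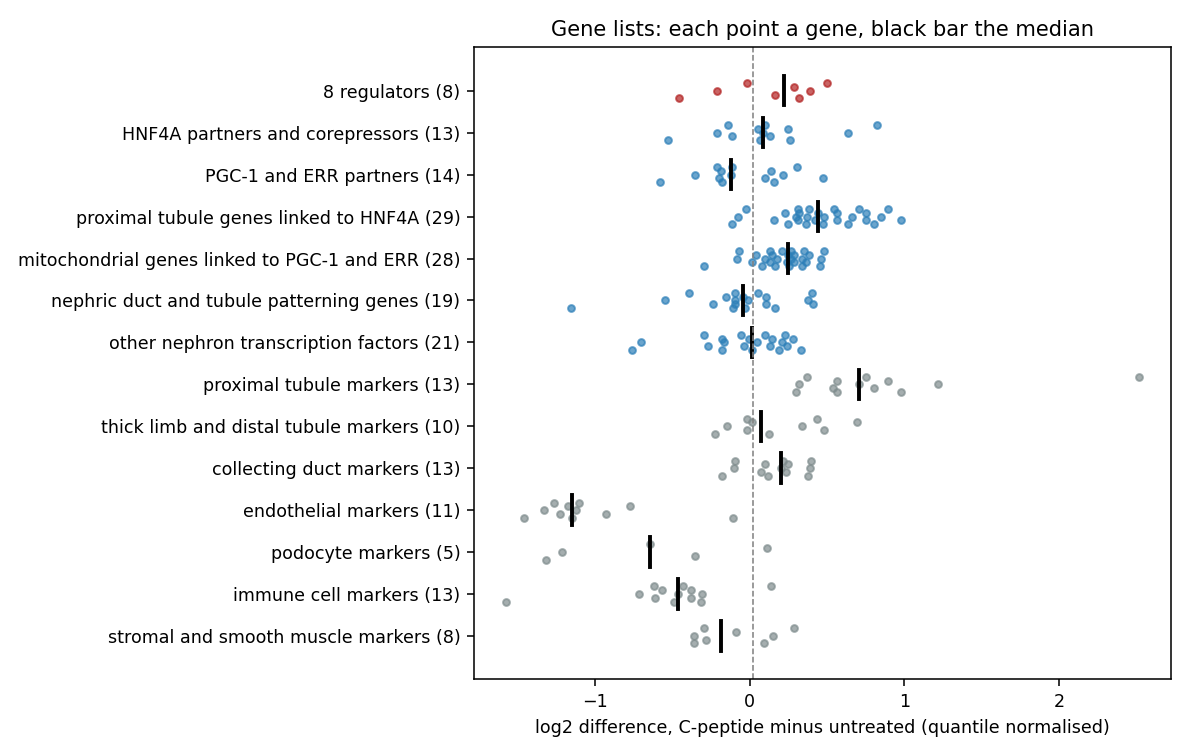
Log2 difference, C-peptide minus untreated, after quantile normalisation for the 8 regulators (red), 6 pathway lists (blue) and 7 lists of cell type markers (grey), with the number of genes measured in brackets; each point is a gene, the black bar the list's median and the dashed line the median of all probe sets (0.021). The proximal tubule genes linked to HNF4A lie to the right (median 0.44), the regulators around 0.22, and endothelial markers to the left (median -1.15).

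Genes with the most similar profiles over the 5 arrays were sought for each member among 8564 genes above the median intensity, by the mean absolute log2 distance after each gene's mean was removed. Hnf4a was nearest to Cndp2, a cytosolic dipeptidase, at 0.033, and to Aco1, the iron-regulated cytosolic aconitase, at 0.040. Ppargc1a was nearest to Mmp14, a membrane metalloproteinase, and Krtap31-1, at 0.016 and 0.018. Esrrg was nearest to Man2a1, a Golgi mannosidase, at 0.013 and then to Atp6v0a4, a proton pump subunit of intercalated cells, at 0.026. Esrra was nearest to Cpsf4 and Gipc2, Pax2 to Sulf2 and Nab1, Pax8 to Zhx2 and Add1, and Emx2 to Ppp3cc and Prpf38b, at 0.0096 to 0.0335. The nearest of Lhx1, Zbtb39 and Tektip1, were 0.11 and 0.12 away. For comparison, the median distance of the searched genes was 0.27 from Hnf4a, 0.17 from Esrra and 0.40 from Lhx1. With 5 arrays such likeness is a description alone.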

How the data were processed

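Expression was measured on 5 Affymetrix arrays, 3 from C-peptide-treated and 2 from untreated cells, whose labels number the animals within each group. The deposited values are probe-set intensities that the submitters' processing notes credit to PLIER and version 1.1 of Affymetrix Expression Console; the sources used here do not give the background correction, scaling or genome build. The members and gene lists were chosen with earlier results of these data known. Because array medians differed, log2(intensity + 16) was quantile normalised and tested two-sided in limma 3.58.1 under R 4.3.3 (lmFit, eBayes), in a model holding group alone, with p-values adjusted by Benjamini-Hochberg. The number of arrays limits the precision, and p-values measure the spread between these animals. Of 15310 probe sets with 1 symbol, 15279 were updated through RefSeq (GRCr8); 323 had several symbols and 13582 none. Genes took their brightest probe set. Named genes were the members, the 3 of smallest p in each pathway list, the largest difference the other way, and the 2 nearest in profile. Symbols were searched in 6 pathway lists and 7 marker lists. Scripts were tested on simulated data. There 0 of 50 probe sets changed 1.5-fold passed adjusted p 0.05, 18 of 50 changed 2-fold and 45 of 50 changed 4-fold. The adjusted test can therefore miss changes of the members' size, the largest rise being 1.41-fold, so a member that did not pass is not shown to be unchanged. The results were recomputed in 15 other ways: other scalings, pseudocounts, filters, variance models, a block for animal number, probe-set means and leaving out each array.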

Additional observations from a re-analysis of the deposited data

How the results depend on the processing

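No member passed adjusted p 0.05 in limma under any of 15 alternatives; the smallest adjusted p was 0.187 (Ppargc1a, pseudocount 64). The 2 members past unadjusted p 0.05 became 0 in the values as deposited and with the replicate block, and 1 after centring arrays and at a pseudocount of 1, and ranged from 0 to 2, with changed members, when an array was left out. Animal numbers 1 and 2 were shared by the groups, and whether they pair the animals is not stated. Deviations from the group means correlated at r = -0.025 and 0.0079 over probe sets. With 2 untreated arrays the deviations of these arrays mirror each other, so the correlations cannot decide on pairing. With the replicate block Hnf4a was at 0.37 and Ppargc1a at 0.43. Leaving out C-peptide animal 3 also gave 0.37 and 0.43, since no untreated animal has the number 3 and the block sets that array aside. Over the alternatives, 114 of 120 member values kept their sign. The exceptions were Esrra as deposited (-0.037) and Pax2 with array weights (0.035), with the replicate block (0.014) and, when arrays were left out, from -0.15 to 0.083. Relative to proximal tubule markers, a scaling added later under which 99.0% of all probe sets were negative, Hnf4a (-0.19), Ppargc1a (-0.30), Esrra (-0.53), Esrrg (-0.37) and Pax8 (-0.40) were negative too. All probe sets past adjusted p 0.05 numbered 0, but 52 as deposited, 29 after centring, 1 and 121 at pseudocounts 1 and 64, 392 and 341 among brighter and 1-symbol probe sets, 208 with a trended prior, 3 with the block and 336 as gene means; at unadjusted p the count of 3321 was 2058 as deposited and 1767 without untreated animal 1. Of 358 values of the other named genes, 339 kept sign and side, 17 passed the threshold (Hnf4g, Slc22a12, Slc17a3, Ggt1 and Ldb2) and 2 reversed, both without C-peptide animal 2, Dpep1 (from -0.40 to 0.047 when arrays were left out) and Tfap2b (-0.0011 to 0.51). The median of other nephron factors relative to all probe sets (-0.0091) was 0.089 among brighter probe sets, 0.0083 with array weights and -0.039 to 0.081 when arrays were left out. On that scale, leaving out arrays gave -0.13 to 0.014 for PGC-1 and ERR partners, -0.022 to 0.11 for HNF4A partners and -0.043 to 0.29 for thick limb and distal markers. In the pathway lists whose counts at unadjusted p were 0 to 3, counts stayed between 0 and 3; the mitochondrial count of 4 was 2 after centring and 8, 7, 8 and 6 with brighter probe sets, 1-symbol probe sets, the trended prior and gene means. The cause was not tested. Without an untreated animal the lone one was assumed to vary like the treated arrays.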
